A study of Mus musculus with 6 samples.

Results

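The Myc family and the Max network were followed here as 10 genes, chosen by name: the activators Myc, Mycn and Mycl, their shared partner Max, the repressors Mxd1, Mxd3, Mxd4, Mxi1 and Mnt, and the Max-like protein Mlx. All 10 had estimated reads and passed the expression filter, among 29347 genes with any read and 16656 genes tested. To learn how Rpl22, a protein of the large ribosomal subunit, alters gene expression in acute myeloid leukemia, the study sequenced poly(A) RNA of splenocytes purified by flow cytometry for CD11b and Gr1, a pair of myeloid surface antigens. There were 3 libraries of genotype Rpl22+/+ and 3 of genotype Rpl22-/-. Mice of both genotypes bore tumors driven by Mll-AF9, a fusion oncogene carried as a knockin allele, so the controls are leukemic as well. The labels give no age and leave unsaid if libraries of one genotype came from separate animals, and the study names a single mouse identifier for each genotype. The p-values below measure the spread between these libraries, which may be technical.

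Myc proteins bind DNA only as dimers with Max, preferring the E-box CACGTG, and activate genes of ribosome biogenesis, nucleotide synthesis and growth. Mxd proteins, Mxi1 and Mnt dimerize with the same Max, bind the same E-boxes and recruit the Sin3 and histone deacetylase corepressor, so that the network is often described as a competition for Max. Mlx pairs with Mxd1, Mxd4 and Mnt and with the glucose-sensing Mondo proteins. In the myeloid lineage, Myc is known to be high in dividing progenitors and Mxd1 is known to rise as cells mature.

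The libraries held between 35828500 and 102866127 estimated reads, with the lowest depth in Rpl22-/- replicate 1. Rpl22 itself was 148, 235 and 152 CPM (counts scaled to a common library size by the TMM method) in Rpl22+/+ and 58.3, 89.9 and 73.5 CPM in Rpl22-/-, so it was reduced but not absent (log2 fold change -1.27 ± 0.25 SE, adjusted p = 0.0106, edgeR). The edgeR test called 2288 genes higher and 2306 lower in Rpl22-/-, 3219 and 2137 with limma on log2(TPM + 1), 3273 and 2149 with limma on log2(TPM + 0.1), and 3543 and 2222 with no correction for library composition, a setting under which the median change over all genes went from 0.07 to 0.19 (log2). Rpl22+/+ replicate 2 stood apart from the other Rpl22+/+ libraries, and it held the highest CPM of its genotype for 10 of the 10 network genes but the highest TPM (transcript abundance scaled for length and depth) for 7. Of 15 neutrophil maturation genes 12 fell in Rpl22-/-, and their summed level was 74090 to 97878 CPM in Rpl22+/+ against 34794 to 46304 CPM in Rpl22-/-. Of 15 proliferation genes only Ccna2 passed the test (log2 fold change -0.67, adjusted p = 0.0129, edgeR), and their summed level overlapped between genotypes (1874 to 2454 against 2031 to 2795 CPM). Of 10 sort antigens and myeloid identity genes 2 rose, Mpo and Elane, 2 fell, Itgam (CD11b) and Ly6g (part of Gr1), and 6 did not pass, and their sum was 6620 to 7874 against 20033 to 24052 CPM. Most of that sum in Rpl22-/- came from Mpo (10594 CPM on average) and Elane (7723 CPM), while Itgam was at 1928 and 948 CPM and Ly6g at 159 and 14.2 CPM in Rpl22+/+ and Rpl22-/-. Of 11 T and NK cell markers 8 fell and 2 rose (82.4 to 117 against 39.4 to 57.3 CPM), and of 9 erythroid markers 8 rose (85.7 to 129 against 585 to 1157 CPM). Of 8 B cell markers 2 fell and 6 did not pass (837 to 1060 against 527 to 775 CPM). Of 12 macrophage and dendritic markers 5 rose, 3 fell and 4 did not pass, with a median log2 fold change of 0.16, although their sum, mostly Csf1r, was 434 to 763 against 226 to 345 CPM. Of 5 stromal and endothelial markers tested 1 rose, 1 fell and 3 did not pass, with a median of -0.49, although the sum of the list, mostly Pecam1, was 60.9 to 72.7 against 74.6 to 95.4 CPM. Neither of 2 platelet markers tested passed, and the sum over all 7 of that list was 2.81 to 4.52 against 3.42 to 3.66 CPM. No marker of these lists was at 0 in all libraries, and the part of these cells in the results below was not tested. In bulk samples, fewer cells of a type and less RNA per cell cannot be told apart.

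Between the genotypes the network changed at its activators, at Max and at a single repressor. Myc rose, Mycn, Mycl, Max and Mxd1 fell, and Mxd3, Mxd4, Mxi1, Mnt and Mlx did not pass the test. In counts, 1 of 10 genes was higher and 4 were lower at an adjusted p under 0.05 (edgeR), where 13.7% of all genes tested were called higher and 13.8% lower. The median log2 fold change of the 10 genes was -0.29, against 0.07 over all genes tested, and leaving out Rpl22+/+ replicate 2 or 1 moved it to -0.14 or -0.40. The groups of libraries did not overlap in CPM for 1 higher and 5 lower genes, where 23.9% and 22.2% of all genes did so. In each fit that left out a library, Rpl22+/+ replicate 2 included, 1 gene was higher and 4 were lower.

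**Figure D1:**
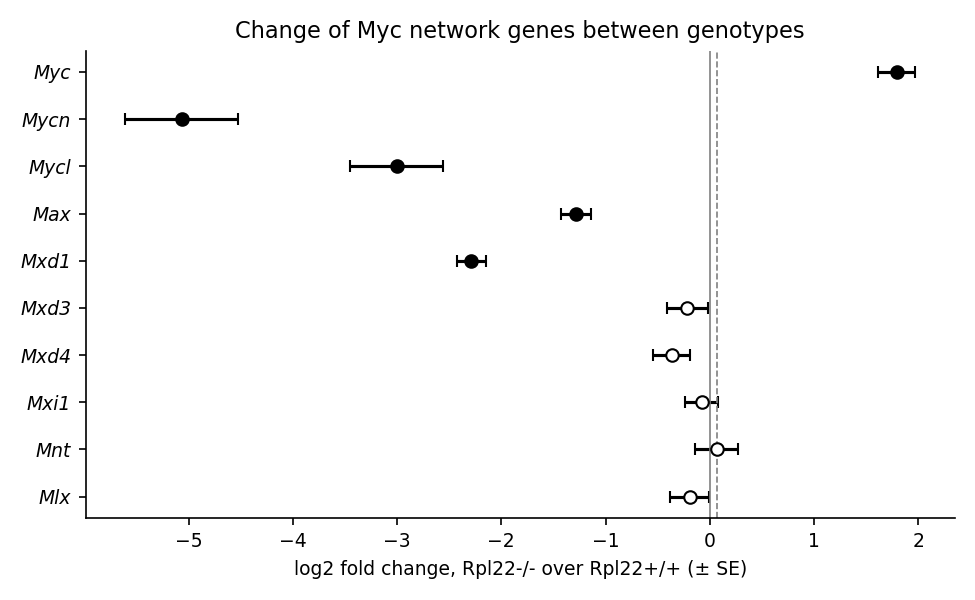
Log2 fold change of each network gene, Rpl22-/- over Rpl22+/+ (points, bars ± SE from edgeR, 3 libraries per genotype), with filled points for an adjusted p under 0.05, a solid line at 0 and a dashed line at the median of all genes tested (0.07). Myc lies to the right at 1.79, Mycn, Mycl, Mxd1 and Max lie to the left from -5.07 to -1.28, and the 5 open points lie between -0.37 and 0.07.

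Among the activators, Myc (ENSMUSG00000022346, chromosome 15, 61857240 to 61862223, plus strand, GRCm39) had a level of 22.4, 23.8 and 22.4 TPM in Rpl22+/+ and 92.8, 76.9 and 78.9 TPM in Rpl22-/-. Every Rpl22-/- library was above every Rpl22+/+ library. On the CPM scale Myc rose from 36.1 ± 7.59 to 125 ± 6.89 (SD, n = 3 each), 3.46-fold (log2 fold change 1.79 ± 0.18 SE, adjusted p = 0.000804, edgeR). It passed in all 16 alternative fits, with log2 fold changes from 1.67 to 1.94.

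Mycl, the member of the family first found in lung cancer, went the other way. Mycl (ENSMUSG00000028654, chromosome 4, 122889445 to 122896278, plus strand) had 413, 778 and 506 reads in Rpl22+/+ and 16, 114 and 133 in Rpl22-/-. The groups did not overlap, and Rpl22-/- replicate 1, the shallowest library, was the lowest. The gene fell from 7.72 ± 2.46 to 0.941 ± 0.448 CPM, with a log2 fold change of -3.00 ± 0.45 (adjusted p = 0.00371, edgeR). Over pooled reads, 1697 against 263, the ratio was 6.55 per unit depth (95% exact binomial interval 5.75 to 7.49, for counting error only).

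Mycn, the neural member of the family, was near the limit of detection in Rpl22-/-. It (ENSMUSG00000037169, chromosome 12, 12986094 to 12991915, minus strand) had 48, 74 and 43 reads in Rpl22+/+ and 1, 3 and 1 in Rpl22-/-. The ratio of pooled reads, 165 against 5, was 33.5 per unit depth, with a 95% interval from 14.1 to 104.5 for counting error. The fitted log2 fold change was -5.07 ± 0.54 (adjusted p = 0.00107, edgeR), a size that depends on the prior count at such levels. On the log2(TPM + 1) scale, which compresses genes at this level, the change was -0.45 for Mycn and -1.51 for Mycl.

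The fall of Mycn and Mycl took little from the family's summed level, because Myc was its main transcript in both genotypes. Myc made up 87.4% ± 1.55 of the family's TPM in Rpl22+/+ and 99.5% ± 0.252 in Rpl22-/-, while Mycl made up 11.2% ± 1.45 and 0.482% ± 0.254. The summed TPM of Myc, Mycn and Mycl was 25.3, 27.8 and 25.5 in Rpl22+/+ and 93.0, 77.4 and 79.4 in Rpl22-/-.

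**Figure D2:**
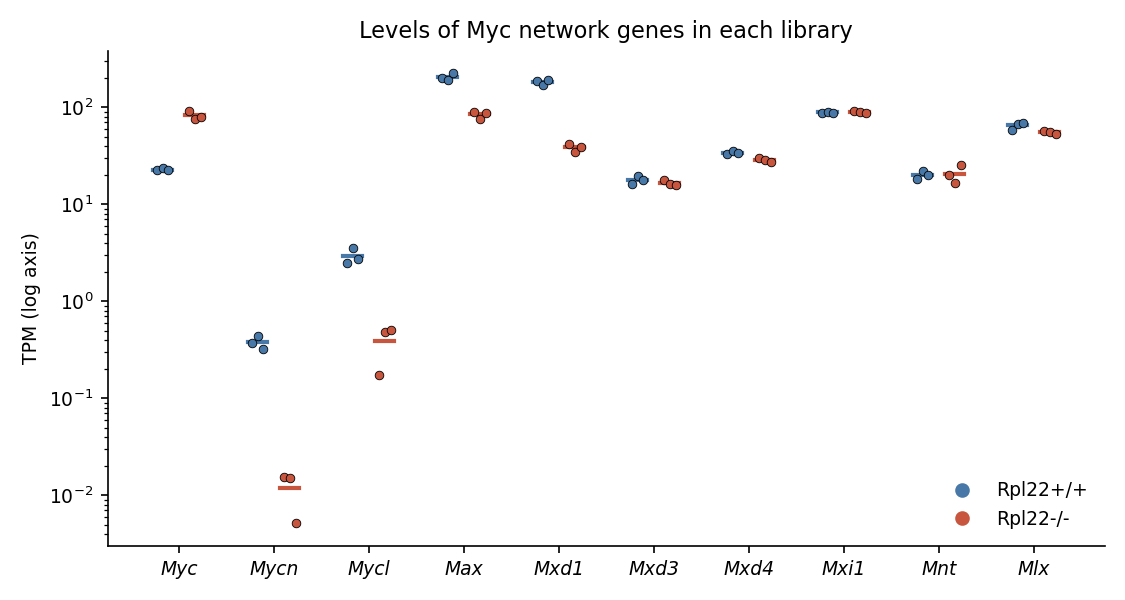
TPM of each network gene in each library on a log axis (points, bars for the mean of 3 libraries, blue for Rpl22+/+ and red for Rpl22-/-). Myc is the gene whose red points lie clearly above the blue, while Mycn, Mycl, Max, Mxd1 and, by less, Mxd4 and Mlx have all red points below the blue.

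Max, the partner that the activators and repressors share, fell. Max (ENSMUSG00000059436, chromosome 12, 76984043 to 77008975, minus strand) was at 202, 190 and 225 TPM in Rpl22+/+ and at 89.6, 75.9 and 88.6 TPM in Rpl22-/-. The genotypes did not overlap. In CPM it fell from 188 ± 26.3 to 77.1 ± 2.31, 2.43-fold (log2 fold change -1.28 ± 0.15, adjusted p = 0.00132, edgeR), and it passed in all 16 alternative fits. Max stood at 9.03 ± 1.04 times the TPM of Myc in Rpl22+/+ and at 1.03 ± 0.0855 times in Rpl22-/-. Set against the summed TPM of all its partners among these genes, 370 ± 6.22 and 278 ± 16.6, Max stood at 0.555 ± 0.0389 and 0.304 ± 0.0162. These ratios are descriptions with no test. They include Max-206, a 203-base transcript annotated as a target of nonsense-mediated decay that held 1.18% of the Max reads but 24.0% of the Max TPM in Rpl22+/+. Over protein-coding transcripts alone, an alternative chosen after seeing the data, Max stood at 6.12 times Myc in Rpl22+/+ and 0.737 times in Rpl22-/-.

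Of the repressors, Mxd1 fell while the others did not pass the test. Mxd1 (ENSMUSG00000001156, chromosome 6, 86624024 to 86646143, minus strand) was at 186, 171 and 192 TPM in Rpl22+/+ and at 42.0, 34.9 and 39.3 TPM in Rpl22-/-. The genotypes were far apart and the libraries of each genotype close together. In CPM the gene fell from 638 ± 61.6 to 131 ± 4.66, 4.88-fold (log2 fold change -2.29 ± 0.14, adjusted p = 0.000138, edgeR), with log2 fold changes of -2.35 to -2.15 in 16 alternative fits, all of which passed. The neutrophil maturation genes, whose median log2 fold change was -1.38, moved in the same libraries. Their part in the change of Mxd1 was not tested.

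Mxd4 (ENSMUSG00000037235, chromosome 5, 34331227 to 34345064, minus strand) had 90.3, 127 and 92.8 CPM in Rpl22+/+ and 75.7, 88.4 and 76.7 CPM in Rpl22-/-. The groups did not overlap, but the difference did not pass (log2 fold change -0.37 ± 0.17, adjusted p = 0.174, edgeR). It passed in 1 of 16 alternative fits, the GC correction with the replicate block, with an adjusted p = 0.0397 (range over the alternatives 0.0397 to 0.377).

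Mxi1 (ENSMUSG00000025025, chromosome 19, 53298949 to 53364241, plus strand) had 87.8, 90.1 and 88.5 TPM in Rpl22+/+ and 92.9, 88.8 and 88.5 TPM in Rpl22-/-. The ranges overlapped, and its log2 fold change of -0.08 ± 0.16 (adjusted p = 0.767, edgeR) took the other sign, at 0.06, with no correction for composition. Mnt (ENSMUSG00000000282, chromosome 11, 74721746 to 74736551, plus strand), the most widely expressed repressor of the network, had 18.4, 22.2 and 20.1 TPM in Rpl22+/+ and 20.0, 16.6 and 25.4 TPM in Rpl22-/-. The Rpl22-/- libraries spread to both sides of the Rpl22+/+ libraries, and the log2 fold change was 0.07 ± 0.21 (adjusted p = 0.854, edgeR), with a sign that changed in 4 of 16 alternative fits.

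Mxd3 (ENSMUSG00000021485, chromosome 13, 55472981 to 55477636, minus strand), the Mxd gene linked to dividing cells, had 16.3, 19.8 and 17.7 TPM in Rpl22+/+ and 18.0, 16.1 and 16.0 TPM in Rpl22-/-. The groups overlapped (log2 fold change -0.21 ± 0.20, adjusted p = 0.486, edgeR). Mlx (ENSMUSG00000017801, chromosome 11, 100978103 to 100983033, plus strand) had 58.7, 68.2 and 68.6 TPM in Rpl22+/+ and 57.1, 55.5 and 53.1 TPM in Rpl22-/-. Its groups were apart in TPM but overlapped in CPM, and its log2 fold change was -0.19 ± 0.19 (adjusted p = 0.510, edgeR).

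Set side by side, the levels of Myc and Mxd1 changed places. In Rpl22+/+ the TPM of Mxd1 was 8.33, 7.20 and 8.58 times that of Myc, and in Rpl22-/- it was 0.453, 0.454 and 0.499 times. The mean ratio was 8.04 ± 0.736 in Rpl22+/+ and 0.469 ± 0.0261 in Rpl22-/-, and over protein-coding transcripts alone 7.37 and 0.443. The sum of Mxd1, Mxd3, Mxd4, Mxi1 and Mnt went from 344 ± 7.01 to 195 ± 8.88 TPM. Without Mxd1 that sum was 161 ± 6.02 against 156 ± 5.29 TPM, so the difference lay almost wholly in Mxd1. Mxd1 made up 53.2% ± 2.28 of the repressor TPM in Rpl22+/+ and 19.9% ± 0.946 in Rpl22-/-, and Mxi1 made up 25.8% ± 0.747 and 46.3% ± 1.48. For each unit of Myc family TPM there were 13.2 ± 0.875 units of repressor TPM in Rpl22+/+ and 2.35 ± 0.151 in Rpl22-/-.

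**Figure D3:**
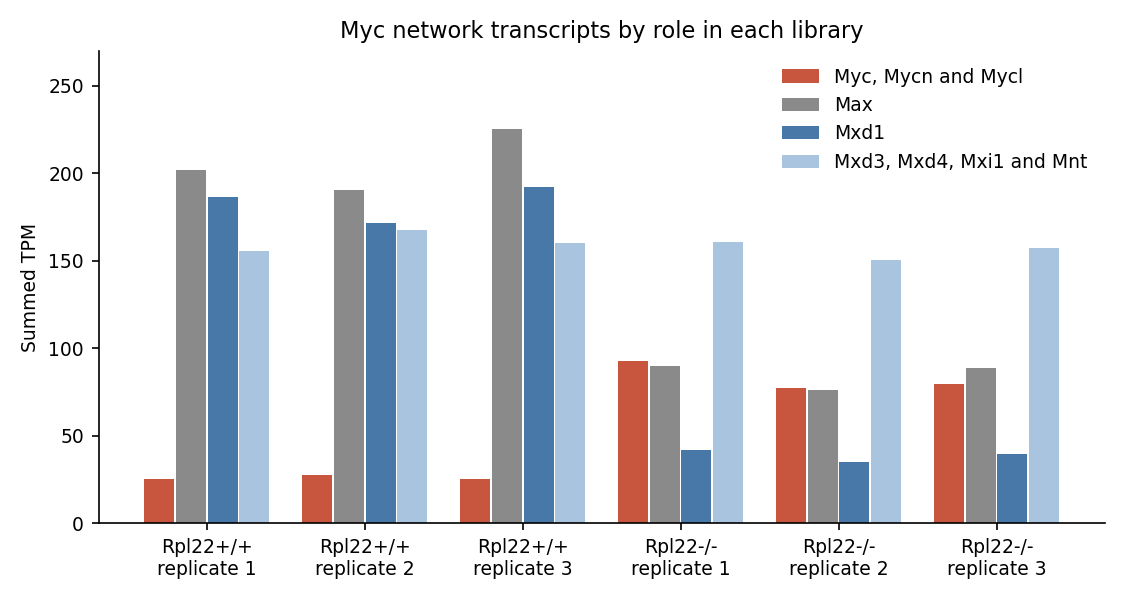
Summed TPM by role in each of the 6 libraries (bars from 0, 1 bar per role). Max (190 to 225 TPM) and Mxd1 (171 to 192 TPM) are the tallest bars in Rpl22+/+, the Myc family bar is 25.3 to 27.8 TPM there and 77.4 to 93.0 TPM in Rpl22-/-, and the bar of the other repressors is 155 to 167 TPM in Rpl22+/+ and 150 to 161 TPM in Rpl22-/-.

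By level per length, the order of the genes in Rpl22+/+ was Max (206 ± 17.8 TPM), Mxd1 (183 ± 10.7), Mxi1 (88.8 ± 1.20), Mlx (65.2 ± 5.64), Mxd4 (34.0 ± 1.17), Myc (22.9 ± 0.821), Mnt (20.2 ± 1.89), Mxd3 (18.0 ± 1.77), Mycl (2.94 ± 0.544) and Mycn (0.379 ± 0.0593). The ranges of Max and Mxd1 overlapped, as did those of Mnt and Mxd3, and every other pair of neighbours was apart. In Rpl22-/- the order was Mxi1 (90.0 ± 2.44 TPM), Max (84.7 ± 7.63), Myc (82.9 ± 8.64), Mlx (55.2 ± 2.01), Mxd1 (38.8 ± 3.59), Mxd4 (28.6 ± 1.34), Mnt (20.6 ± 4.44), Mxd3 (16.7 ± 1.11), Mycl (0.387 ± 0.184) and Mycn (0.0119 ± 0.00587). There Mxi1 and Max overlapped, as did Max and Myc, and Mnt and Mxd3. Myc thus stood below Mxd4 in Rpl22+/+ and above Mlx in Rpl22-/-, while Mxd1 stood above Mxi1 in Rpl22+/+ and below Mlx in Rpl22-/-. Over protein-coding transcripts alone the leading gene of Rpl22+/+ was Mxd1 (168 ± 8.87 TPM), ahead of Max (140 ± 6.05). On that basis the order in Rpl22-/- began with Mxi1 (88.9 ± 2.28 TPM) and Myc (82.9 ± 8.64), whose ranges overlapped, and Max (60.8 ± 2.84) stood below Myc with no overlap.

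Abundance was given per transcript, so the isoforms of each gene could be followed. Shares of a gene's reads or TPM are taken over those of its transcripts that matched the annotation. Of 18 transcripts with at least 10% of a gene's reads in either genotype, 17 were tested, and 2 rose and 5 fell at an adjusted p under 0.05 (edgeR over 57835 transcripts, of which 3.10% were called higher and 3.84% lower). Myc-205 and Myc-206 rose, with log2 fold changes of 1.83 ± 0.20 (adjusted p = 0.00687) and 1.29 ± 0.23 (adjusted p = 0.0269, edgeR). Myc-202 did not pass, at a log2 fold change of 2.01 ± 0.48 (adjusted p = 0.0628, edgeR), and held 21.2% ± 8.41 of the Myc reads in Rpl22+/+ and 26.4% ± 5.28 in Rpl22-/-. Myc-205 held 52.1% ± 0.973 of the Myc reads in Rpl22+/+ and 56.0% ± 3.62 in Rpl22-/-, so the leading transcript was the same in both genotypes. Mxd1-201 held 97.8% and 98.3% of the Mxd1 reads and fell by 2.34 ± 0.17 on the log2 scale (adjusted p = 0.00205, edgeR). Mycl-201 fell by 2.72 ± 0.38 (adjusted p = 0.0132, edgeR), while Mycl-202, which encodes the same 368 codons, had a log2 fold change of -3.32 ± 1.17 (adjusted p = 0.171, edgeR) and no read in Rpl22-/- replicate 1. Mycn-201 had 32, 35 and 42 reads in Rpl22+/+ and was at 0 in all Rpl22-/- libraries (adjusted p = 0.0154, edgeR). Against a floor of 3 counts over the group it was 36.9-fold lower, a size that holds only if reads were split rightly between Mycn transcripts. All 5 Mycn reads of Rpl22-/- were assigned to Mycn-202, which had 16, 38 and 0 reads in Rpl22+/+. Transcript calls varied with the library left out, from 0 to 3 higher and from 1 to 5 lower. The fit that left out Rpl22+/+ replicate 2 made 3 higher and 5 lower calls, and that without Rpl22+/+ replicate 1 made 4 lower calls. There was 1 lower call without Rpl22+/+ replicate 3, without Rpl22-/- replicate 2 or without Rpl22-/- replicate 3, and 2 without Rpl22-/- replicate 1. There was 1 higher call without Rpl22+/+ replicate 1 or Rpl22-/- replicate 2, and there were 0 without Rpl22+/+ replicate 3, Rpl22-/- replicate 1 or Rpl22-/- replicate 3. Each of these edgeR fits had 3 transcripts higher and 5 to 7 lower at an unadjusted p under 0.05.

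Max is made as a pair of main forms that differ by a short exon near the start of the protein. Max-201 encodes 151 codons and Max-202 encodes 160, and the difference is exon 2 of Max-202, 27 bases or 9 codons at chr12:76961263-76961289 (minus strand, GRCm38), shown here because it is what separates the forms whose shares are given next.
Max-202 exon 2: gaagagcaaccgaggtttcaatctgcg
Both forms fell, Max-201 by 1.23 ± 0.17 (adjusted p = 0.0132, edgeR) and Max-202 by 1.50 ± 0.21 (adjusted p = 0.0125, edgeR) on the log2 scale. The share of Max reads held by Max-201 was 59.8%, 59.0% and 60.8% in Rpl22+/+ and 65.9%, 64.5% and 63.3% in Rpl22-/-. The share held by Max-202 was 30.1%, 31.2% and 27.8% in Rpl22+/+ and 24.9%, 27.2% and 27.8% in Rpl22-/-. Neither pair of groups overlapped in these shares of reads, though Max-202 of Rpl22+/+ replicate 3 and of Rpl22-/- replicate 3 nearly met. As shares of the Max TPM, Max-201 was apart as well, but Max-202 overlapped, with 18.5%, 20.3% and 16.0% in Rpl22+/+ and 16.4%, 19.1% and 17.1% in Rpl22-/-. Each difference in the share of reads had a 2-sided exact permutation p = 0.1, the smallest that 3 against 3 libraries allow, and the shares of TPM were not tested. Of the 18 main transcripts 5 had shares that were higher and 4 had shares that were lower without overlap, among 24284 such transcripts of tested genes with several transcripts, of which 9.19% were higher and 10.5% lower. Shares within a gene sum to the whole, so a rise of one is a fall of another, and both Mycn transcripts are among the 9 on only 5 reads in Rpl22-/-. As shares of TPM 8 of the 18 were apart, 7 of them among these 9.

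Shares of Mxi1 and Mlx transcripts differed by similar amounts. Mxi1-201, which encodes 295 codons, held 44.8% ± 1.23 of the Mxi1 reads in Rpl22+/+ and 41.2% ± 2.38 in Rpl22-/-, and Mxi1-203, with 228 codons, held 50.5% ± 2.36 and 55.3% ± 2.34. Mlx-203, with 214 codons, held 15.1% ± 0.0616 and 10.8% ± 2.15, and Mlx-201, with 298 codons, held 30.8% ± 0.969 and 35.0% ± 2.78. In each of these 4 the groups did not overlap as shares of reads (exact permutation p = 0.1), while Mlx-203 overlapped as a share of TPM (10.9% to 12.4% against 7.18% to 11.1%), and none of the 4 transcripts passed the edgeR test of its level, with adjusted p from 0.271 to 0.994. Mnt-201 was apart as well, with 97.4% ± 0.177 and 99.4% ± 0.964 of the Mnt reads (exact permutation p = 0.1). The uncertainty of assigning reads to overlapping transcripts is not in the files and was not modelled.

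**Figure D4:**
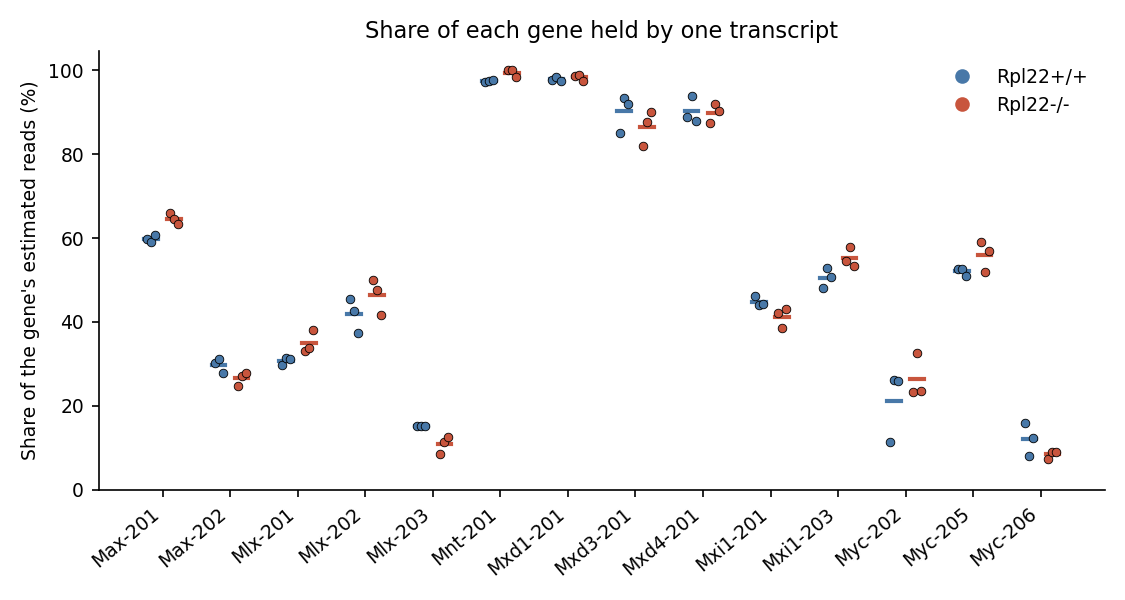
Share of a gene's estimated reads held by the 14 main transcripts of Max, Mlx, Mnt, Mxd1, Mxd3, Mxd4, Mxi1 and Myc in each library (points, bars for the mean of 3 libraries, blue for Rpl22+/+ and red for Rpl22-/-). Max-201 is higher and Max-202 lower in Rpl22-/-, with groups that do not overlap, and Mxd1-201 keeps nearly all Mxd1 reads in both genotypes.

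The E-box CACGTG, a palindrome that reads the same on both strands, was searched in RefSeq promoters (GRCm38.p6, 250 bases before to 50 after a start). A promoter was listed for 9 of the 10 genes, all but Myc, and 4 of these 9 held the motif: Max, Mlx, Mnt and Mxd4. Of the promoters of all 27025 genes listed, 8.09% did so, and 11.3% of the tested genes that have a promoter there. The motif with 12 bases on each side is shown for these genes, because it is the sequence that Myc and Max themselves bind, with the E-box in capitals.
Max, chr12:76962234-76962263, minus strand: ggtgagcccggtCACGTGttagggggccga
Mlx, chr11:101087238-101087267, plus strand: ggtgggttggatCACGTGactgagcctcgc
Mnt, chr11:74830789-74830818, plus strand: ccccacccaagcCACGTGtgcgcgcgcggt
Mxd4, chr5:34187912-34187941, minus strand: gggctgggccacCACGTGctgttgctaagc
The first base of the motif lay 3 bases before the start of Max, 40 before that of Mlx, 123 before that of Mnt and 219 before that of Mxd4. Of these genes Max fell and the other three did not pass the test, and Mxd1, Mycl and Mycn, which fell, held no such letters in this window. A match is a description of sequence, and binding was not measured here.

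The study also followed Lin28b, a protein known to block the maturation of let-7 microRNAs, so the reference 3' UTRs (longest per gene, GENCODE vM21) were read for CTACCTC, the match to bases 2 to 8 of let-7, on the transcribed strand. Among the 10 genes 1 held it, Mxd1, against 9.03% of all coding genes and 10.4% of tested genes. It is shown beside mouse let-7a, with the match and the seed in capitals.
mmu-let-7a-5p: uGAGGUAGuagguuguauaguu
Mxd1-201, from 11 bases before the match: ggaacattgtcCTACCTCagagatagatg
The match began at base 635 of the 3829 bases of this UTR. The study counts Myc among the Lin28b targets induced in these leukemias, acted on directly or through let-7. The search here covered only this match in the longest UTR, so other let-7 sites and direct Lin28b binding were not examined. let-7 itself was not measured in these libraries, and no effect on Mxd1 was tested.

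Genes of the wider pathway were read from lists, each described by its counts at an adjusted p under 0.05 (edgeR) beside the 13.7% and 13.8% of all genes called higher and lower. Those shares themselves moved when a library was left out: 8.06%, 20.7% and 6.76% of all genes were higher without Rpl22+/+ replicates 1, 2 and 3, and 8.68%, 9.55% and 8.11% without Rpl22-/- replicates 1, 2 and 3. The shares lower were 9.83%, 19.3% and 8.33%, and 8.80%, 10.9% and 8.25%, in the same order. Of 50 genes that Myc is known to activate, 9 rose, 1 fell and 40 did not pass, with a median log2 fold change of 0.33. The share that rose was 18.0% in this fit, near the share over all genes, and the share that fell was 2.00%. With either limma fit 23 of the 50 rose, where 19.3% and 19.7% of all genes were higher. With DESeq2 size factors 8 rose, where 13.7% of all genes were higher. The largest rises were those of Tert, the telomerase reverse transcriptase, and of Srm, spermidine synthase. Tert went from 1.32, 0.459 and 0.989 CPM to 5.88, 2.75 and 3.70 CPM (edgeR log2 fold change 2.15 ± 0.47, adjusted p = 0.0160). Srm went from 32.7, 56.1 and 31.3 CPM to 78.0, 93.4 and 82.9 CPM (edgeR log2 fold change 1.08 ± 0.25, adjusted p = 0.0194). Neither gene overlapped between genotypes, and Rpl22+/+ replicate 2 was the lowest library for Tert and the highest of its genotype for Srm.

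The other 7 that rose were Rrp9, Wdr12, Nop56, Dkc1, Polr1b, Hspd1 and Eif4e, named after their values were seen, with log2 fold changes from 0.40 for Eif4e to 1.01 for Rrp9. Rrp9, Wdr12, Nop56, Dkc1 and Polr1b serve the making of ribosomal RNA and ribosomes, Hspd1 is a mitochondrial chaperonin and Eif4e binds the mRNA cap. Hk2, the hexokinase that opens glycolysis, fell from 105, 129 and 112 CPM to 25.7, 24.0 and 27.0 CPM (edgeR log2 fold change -2.17 ± 0.14, adjusted p = 0.000152). Npm1, Ncl and Odc1, familiar Myc targets, had log2 fold changes of 0.36, 0.57 and 0.65 with adjusted p from 0.326 to 0.522 (edgeR). The count that rose was 4, 22 and 3 without Rpl22+/+ replicates 1, 2 and 3 and 2, 5 and 3 without Rpl22-/- replicates 1, 2 and 3, and the calls over all genes also fell or, without Rpl22+/+ replicate 2, rose in these fits. At an unadjusted p under 0.05 (edgeR) 9, 30, 9, 13, 10 and 9 of the list were higher, in the same order. The list's median was 0.21 without Rpl22+/+ replicate 1. Of the 50 listed genes 1 fell when any other single library was left out, and 2 fell without Rpl22+/+ replicate 2. The count that rose was 20 with no correction for composition, where the list's median was 0.47 and that of all genes 0.19, and where 21.3% of all genes were called higher.

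An E-box stood in 13 of the 42 Myc-activated genes with a listed promoter (31.0%). It stood in 2 of the 8 such genes that rose, Eif4e and Hspd1, and in 11 of the 33 that did not pass. Eif4e and Hspd1 are shown as the Myc-activated genes in which a motif and a rise met, again with the E-box in capitals (GRCm38.p6). The other lists were not split in this way.
Eif4e, chr3:138527028-138527057, plus strand: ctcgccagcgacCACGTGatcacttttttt
Eif4e, chr3:138527192-138527221, plus strand: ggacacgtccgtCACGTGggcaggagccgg
Hspd1, chr1:55088306-55088335, minus strand: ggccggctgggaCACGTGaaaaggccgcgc

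Of 20 genes that Myc is known to repress, 19 were tested, and 1 rose, 5 fell and 13 did not pass, with a median log2 fold change of -0.33. Cdkn1c, an inhibitor of cyclin-dependent kinases, was the gene that rose, from 2.39, 2.84 and 1.91 CPM to 28.8, 32.2 and 30.9 CPM (edgeR log2 fold change 3.69 ± 0.20, adjusted p = 8.36e-05). Thbs1, the matrix protein thrombospondin 1, fell from 21.1, 28.0 and 32.5 CPM to 0.0802, 0.379 and 2.73 CPM (edgeR log2 fold change -4.61 ± 1.04, adjusted p = 0.0179). Cdkn2b, which inhibits Cdk4 and Cdk6, fell from 1.27, 1.42 and 1.42 CPM to 0.0535, 0.270 and 0.406 CPM (edgeR log2 fold change -2.41 ± 0.58, adjusted p = 0.0227). Cdkn1b, Itgal and Ccng2, named after their values were seen, also fell, by 0.72, 1.44 and 1.16 on the log2 scale. The list thus held the kinase inhibitors Cdkn1b and Cdkn2b among the genes that fell and Cdkn1c as the gene that rose. Leaving out Rpl22+/+ replicate 3 left 2 genes that fell, leaving out Rpl22-/- replicate 2 left 3, and leaving out Rpl22+/+ replicate 2 gave 2 that rose. The list's median moved to -0.79 when Rpl22-/- replicate 3 was left out and to -0.25 when Rpl22+/+ replicate 2 was.

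**Figure D5:**
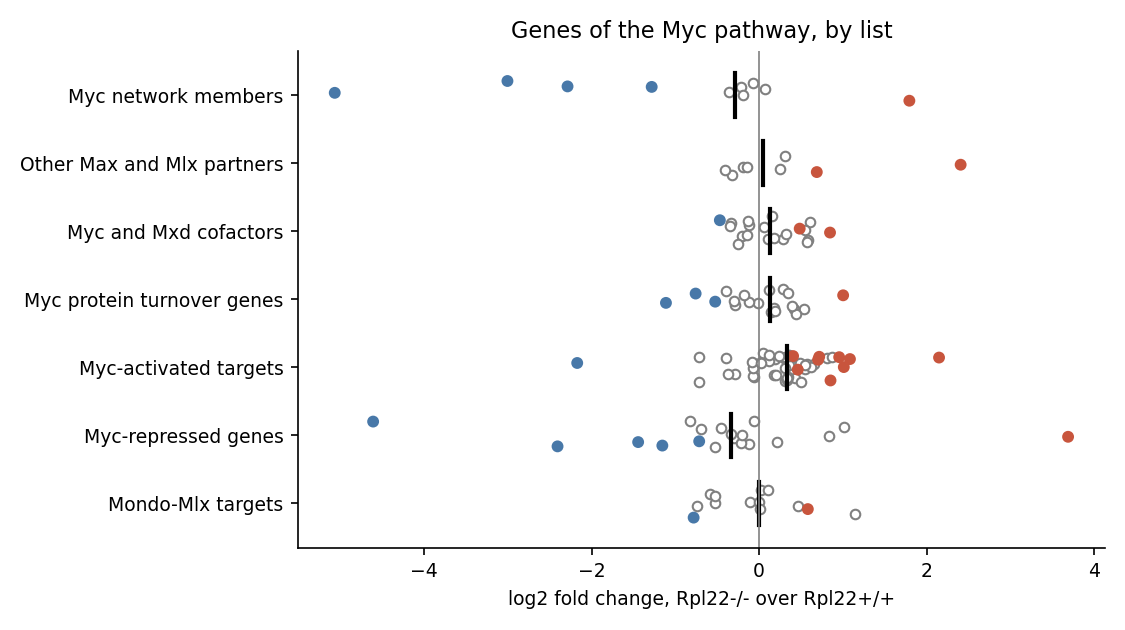
Log2 fold change of every tested gene of the network and of 6 lists of its partners, cofactors and targets, Rpl22-/- over Rpl22+/+ (filled red points rose and filled blue points fell at an adjusted p under 0.05, open points did not pass, black bars mark medians, vertical scatter has no meaning). The median of the Myc-activated genes lies at 0.33 and that of the Myc-repressed genes at -0.33, with most points of both lists open.

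Among 8 other transcription factors that share partners or E-boxes with the network, 2 rose and 6 did not pass. Mlxipl, the glucose-responsive Mondo protein that dimerizes with Mlx, rose from 0.441, 0.419 and 0.494 CPM to 2.94, 2.14 and 2.13 CPM (edgeR log2 fold change 2.40 ± 0.27, adjusted p = 0.00120). Tfap4, an E-box factor that Myc induces, rose from 11.7, 16.4 and 12.9 CPM to 21.3, 23.0 and 21.8 CPM (edgeR log2 fold change 0.69 ± 0.17, adjusted p = 0.0230). Mga, Mlxip, Usf1, Usf2, Bhlhe40 and Arntl did not pass. The count that rose was 1 without Rpl22+/+ replicate 1 or 3 and without Rpl22-/- replicate 1 or 3. Of 13 tested genes that Mlx and the Mondo proteins are known to control, 1 rose, 1 fell and 11 did not pass. Acacb, an acetyl-CoA carboxylase, rose from 15.0 ± 2.39 to 22.4 ± 0.330 CPM (edgeR log2 fold change 0.58 ± 0.16, adjusted p = 0.0342), and G6pdx, which opens the pentose phosphate pathway, fell from 673 ± 160 to 391 ± 25.8 CPM (edgeR log2 fold change -0.78 ± 0.20, adjusted p = 0.0266). Txnip, the best known of these targets, had a log2 fold change of -0.53 (adjusted p = 0.240, edgeR). The count that rose was 0 without Rpl22+/+ replicate 1 or 3 or any Rpl22-/- library and 2 without Rpl22+/+ replicate 2, and the count that fell was 0 without Rpl22+/+ replicate 3 or Rpl22-/- replicates 1 or 3, 3 without Rpl22+/+ replicate 2 and 2 without Rpl22-/- replicate 2. Over all genes 6.76% to 9.55% were higher in the fits with no rise and 20.7% without Rpl22+/+ replicate 2. At an unadjusted p under 0.05 those edgeR fits with no call had 1 to 2 genes higher and 2 to 4 lower.

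Of 20 cofactors of Myc and Mxd proteins 2 rose, 1 fell and 17 did not pass. Hdac1, a histone deacetylase of the Sin3 complex that Mxd proteins recruit, rose from 134 ± 25.4 to 241 ± 22.2 CPM (edgeR log2 fold change 0.85 ± 0.17, adjusted p = 0.0133), and its partner Hdac2 from 44.2 ± 3.21 to 61.8 ± 5.09 CPM (edgeR log2 fold change 0.48 ± 0.13, adjusted p = 0.0330). Trrap, the scaffold through which Myc recruits histone acetyltransferases, fell from 217 ± 23.5 to 157 ± 10.1 CPM (edgeR log2 fold change -0.47 ± 0.14, adjusted p = 0.0456). With no composition factor or either limma fit 8 rose. The number that rose was 0, 7 and 0 without Rpl22+/+ replicates 1, 2 and 3 and 1 without any Rpl22-/- library, and the number that fell was 2 without Rpl22+/+ replicate 2 and 0 without any other library. Over all genes, 8.06%, 20.7% and 6.76% were higher without Rpl22+/+ replicates 1, 2 and 3. In these fits 2 to 8 genes of the list were higher and 1 to 3 lower at an unadjusted p under 0.05 (edgeR).

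Of 20 genes of Myc protein turnover 1 rose, 3 fell and 16 did not pass. Gsk3b, the kinase that marks Myc for Fbxw7, fell from 110, 98.7 and 114 CPM to 70.4, 59.6 and 60.9 CPM (edgeR log2 fold change -0.76 ± 0.13, adjusted p = 0.00720). Ppp2r5a, a regulatory subunit of the phosphatase PP2A, fell from 471, 596 and 488 CPM to 226, 259 and 234 CPM (edgeR log2 fold change -1.11 ± 0.15, adjusted p = 0.00274). Trim32, a ubiquitin ligase, rose from 4.36, 5.32 and 3.87 CPM to 8.77, 9.96 and 8.41 CPM (edgeR log2 fold change 1.00 ± 0.19, adjusted p = 0.00881). Fbxo28, named after its value was seen, was the other gene that fell, and Fbxw7 itself did not pass (log2 fold change -0.40, adjusted p = 0.236, edgeR). The count that rose was 4 with no composition factor and 5 with either limma fit, where 21.3%, 19.3% and 19.7% of all genes were higher. It was 5 without Rpl22+/+ replicate 2, and the count that fell was 2 without Rpl22+/+ replicate 1 or 3 and without Rpl22-/- replicate 1 or 3.

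The genes whose log2 CPM followed Myc most closely over the 6 libraries were Dhrs3, a retinal reductase (r = 0.9997), Cbr1, a carbonyl reductase (r = 0.9995), and Dhx33, an RNA helicase (r = 0.9994), of 13201 genes compared. Those closest to Mxd1 were the predicted gene Gm45552 (r = 0.9997), the transcription factor Sox13 (r = 0.9997) and Il1rn, the interleukin 1 receptor antagonist (r = 0.9996). The 6 libraries form a pair of genotype clusters, so these correlations describe mainly a shared difference between genotypes, and r exceeded 0.99 for 276 genes with Myc and for 300 with Mxd1. Dhrs3 rose from 32.1 ± 7.24 to 107 ± 5.93 CPM (edgeR log2 fold change 1.74, adjusted p = 0.00107), close to the values of Myc. Il1rn fell from 78.7 ± 12.5 to 5.73 ± 0.0482 CPM (edgeR log2 fold change -3.78, adjusted p = 5.24e-05).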

How the data were processed

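The 6 libraries hold poly(A) RNA from sorted CD11b+Gr1+ spleen cells. The authors used a stranded kit, Trimmomatic for adaptor trimming, and Salmon with GRCm39 for transcript abundance (versions not given in the sources used here). The authors deposited estimated counts and TPM per transcript for each library. A further deposited table holds the authors' base mean (a signal scaled by size factors), which served to check completeness, gene positions, which are printed, and their DESeq2 fold changes and p-values, which were not used.

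Transcripts were paired with genes through GENCODE vM21 (GRCm38), which also gave GC content, coding lengths and UTRs. Of 276623 transcripts 136036 matched, with 98.0% to 98.1% of the reads, and the gene sums were 0.957 to 1.00 of the authors' base mean for the 10 genes. RefSeq gave promoters and let-7. Sums were rounded to whole counts, and genes passing filterByExpr (16656) entered edgeR 4.0.16 (R 4.3.3; TMM scaling, quasi-likelihood fit, a genotype term and no covariate), with Benjamini-Hochberg adjustment over all genes, or over all transcripts for isoforms. Each SE was derived from its F statistic. CPM are on TMM-scaled library sizes. Shares were compared with an exact permutation test. The procedure was tested on simulated data.

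The genes, lists and tests were chosen with earlier results of these data known, and the lists come from general knowledge. Genes named are the 10 members, Rpl22, up to 2 genes per list and direction with the largest change (adjusted p under 0.05, mean of at least 50 reads), the 3 genes most correlated with Myc and with Mxd1, and transcripts with at least 10% of a gene's reads. Other genes of the lists, including those named as not passing, were chosen after their values were seen. The alternatives were DESeq2 1.42.0 size factors or test, no composition factor, other count filters, limma 3.58.1 on log2(TPM + 1) or log2(TPM + 0.1), a GC correction, the replicate number as a block, and each library left out. Protein sequences were not used here. Figures were drawn with matplotlib 3.10.9.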

Additional observations from a re-analysis of the deposited data

How the results depend on the processing

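The calls of Myc, Mycl, Max and Mxd1 held in 16 of 16 alternative fits and that of Mycn in 15 of 15 (Mycn has a mean under 50 reads). The highest adjusted p-value of each was 0.00744 for Myc, 0.00703 for Mycn, 0.0192 for Mycl, 0.0124 for Max and 0.00233 for Mxd1. None of the fits for Mlx, Mnt, Mxd3 or Mxi1 passed. The sign of Mxi1 turned with no composition factor (0.063) and with limma on log2(TPM + 1) or log2(TPM + 0.1) (0.020 each), and over fits without 1 library its log2 fold change ran from -0.17 to 0.025. That of Mnt turned with the GC correction (-0.046) and with that correction and the block (-0.050), and ran from -0.076 to 0.23 without 1 library. Among transcripts, Mnt-201 turned with DESeq2 size factors (-0.049), and Mxi1-203 was at 0.00062 with a mean of at least 50 counts and at 0.0042 with the block. Without 1 library, log2 fold changes ran from -0.22 to 0.19 for Mlx-201, from -0.31 to 0.16 for Mlx-202, from -0.12 to 0.28 for Mnt-201 and from -0.16 to 0.21 for Mxi1-203. The causes of these turns were not tested.

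The counts over the lists of pathway genes moved more, and the causes were not tested. The cofactors that rose numbered 8 with no composition factor and with either limma fit, 4 with a mean of at least 50 counts, DESeq2 or the GC correction, and 6 with the block, with or without the GC correction. Those that fell numbered 2 with a mean of at least 50 counts, DESeq2, the GC correction or the GC correction and block, and 0 with the block in edgeR, where 2 fell at an unadjusted p under 0.05. The turnover genes that rose numbered 4 with no composition factor, 5 with either limma fit, 2 with a mean of at least 50 counts, DESeq2, the block or the GC correction, and 3 with the last pair together. The Myc-activated genes that rose numbered 20 with no composition factor, 23 with either limma fit, 16 with the block and 18 with the GC correction and block. Of all genes, 21.3%, 19.3% or 19.7%, 17.7% and 19.6% were higher in these fits, in the same order. The Myc-activated genes that fell numbered 2 with no low-count filter, 4 with a mean of at least 50 counts and 3 with every other alternative that left out no library. The Myc-repressed genes that rose numbered 2 except with DESeq2 size factors or a mean of at least 50 counts (1 each), and 8 fell with the GC correction and block. The Mondo and Mlx targets that rose numbered 2 with no composition factor and with either limma fit. Those that fell numbered 2 with DESeq2 size factors, no composition factor, a mean of at least 50 counts or the block, 3 with DESeq2 and with either limma fit, and 4 with the GC correction, alone or with the block. Without 1 library, the counts that rose ran from 1 to 2 for the other partners, 0 to 7 for cofactors, 1 to 5 for turnover genes, 2 to 22 for Myc-activated genes, 1 to 2 for Myc-repressed genes, 0 to 2 for Mondo and Mlx targets and 0 to 3 for the network's transcripts. The counts that fell ran from 0 to 2, 2 to 4, 1 to 2, 2 to 6, 0 to 3 and 1 to 5 for the last 6 of these in the same order. The largest counts of rises came without Rpl22+/+ replicate 2.

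The replicate numbers are shared by both genotypes, and deviations of same-numbered libraries from their group means correlated at 0.48, 0.63 and 0.097, while Rpl22+/+ replicate 3 correlated at 0.36 with Rpl22-/- replicate 1. Each Rpl22-/- library correlated best with the Rpl22+/+ library of its own number, though at only 0.097 for replicate 3. The remaining pairs of unlike number ran from -0.56 to -0.011. In the main fit the numbers were not taken as pairs, and a batch shared by them was not tested. With the replicate block 2943 genes were higher and 2688 lower, with the GC correction and block 3264 and 3247, and with the block 1 main transcript of the network was higher and 4 were lower, against 2 and 5 without it. Myc-206 (adjusted p = 0.0771, edgeR) and Mycn-201 (adjusted p = 0.128, edgeR) were the calls not made with the block.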
